A study of Mus musculus with 6 samples.

Results

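The myosin heavy chain genes of adult limb muscle were followed in reloaded mouse soleus, with 1 probe each for Myh7, Myh2, Myh1 and Myh4. These 4 genes were chosen by symbol in the platform annotation, out of 223 probes on the array. All 6 arrays belonged to a single group, replicates 1 to 6: soleus of wild-type C57Bl/6 mice, taken after 1 day of reloading. RNA came from frozen sections of muscle, and 3 micrograms of total RNA were used per sample. The labels do not say that the 6 samples came from 6 animals, nor give the animals' age or how the muscle had been unloaded. The p-values of correlations therefore refer only to associations across these 6 samples, whose differences may be technical. No unloaded or untouched muscle was analysed here. The measurements therefore show how far the ratios between the isoforms' probe signals differed from sample to sample in reloaded soleus.

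Myosin heavy chain is the motor protein of the thick filament, and the isoform a fibre makes largely sets how fast it shortens. Myh7 encodes the slow chain of type I fibres, which is shared with the heart ventricle. Myh2, Myh1 and Myh4 encode the fast chains of type IIa, IIx and IIb fibres, in order of increasing speed. The mouse soleus is a postural muscle built mainly of type I and IIa fibres, and unloading and reloading are known to shift limb muscle between slow and fast isoforms.

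Myh2, Myh1 and Myh4 follow each other in a row on mouse chromosome 11, while Myh7 lies on chromosome 14. Because the slow gene and the fast genes were measured side by side, the 300 bases around their annotated starts (250 before and 50 after) are shown, from RefSeq on GRCm38.p6, each read 5′ to 3′ on the gene's own strand. All 4 genes matched that table. It held 2 starts for Myh7, whose windows overlap by 223 bases, and the one farther downstream is shown. The windows are chr14:54994500-54994799 on the minus strand for Myh7, and on the plus strand chr11:67170777-67171076 for Myh2, chr11:67199852-67200151 for Myh1 and chr11:67237562-67237861 for Myh4. Capitals mark the longest run of bases common to the 3 fast genes, and TATAAA on the strand shown.
Myh7: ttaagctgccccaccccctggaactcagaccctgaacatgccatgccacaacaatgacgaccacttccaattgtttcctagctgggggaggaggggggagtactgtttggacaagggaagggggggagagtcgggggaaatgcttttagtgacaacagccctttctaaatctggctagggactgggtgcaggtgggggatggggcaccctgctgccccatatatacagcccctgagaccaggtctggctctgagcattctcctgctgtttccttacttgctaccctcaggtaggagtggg
Myh2: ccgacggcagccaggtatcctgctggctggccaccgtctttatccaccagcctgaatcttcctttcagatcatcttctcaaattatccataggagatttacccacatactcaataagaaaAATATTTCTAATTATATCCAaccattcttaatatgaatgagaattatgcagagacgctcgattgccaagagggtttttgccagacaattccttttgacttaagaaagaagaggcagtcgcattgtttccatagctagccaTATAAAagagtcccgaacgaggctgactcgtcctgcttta
Myh1: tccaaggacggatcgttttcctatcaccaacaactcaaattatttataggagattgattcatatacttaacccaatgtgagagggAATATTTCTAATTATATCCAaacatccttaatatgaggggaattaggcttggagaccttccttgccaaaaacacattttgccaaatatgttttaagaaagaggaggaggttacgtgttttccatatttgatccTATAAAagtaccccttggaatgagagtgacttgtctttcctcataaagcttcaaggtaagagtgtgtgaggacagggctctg
Myh4: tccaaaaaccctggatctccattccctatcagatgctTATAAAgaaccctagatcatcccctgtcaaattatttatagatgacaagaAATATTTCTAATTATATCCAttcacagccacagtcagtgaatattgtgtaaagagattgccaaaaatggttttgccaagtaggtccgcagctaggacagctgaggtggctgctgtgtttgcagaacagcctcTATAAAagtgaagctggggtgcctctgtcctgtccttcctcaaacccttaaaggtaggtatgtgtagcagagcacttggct

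The 3 fast genes shared a run of 20 bases, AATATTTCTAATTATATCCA, which occurred in 3 of the 32851 promoter windows of the table, all of them these genes. The longest run that Myh7 shared with any fast gene was 9 bases, against 20 or 21 bases between pairs of fast genes. On either strand, TATAAA was found in 0 places in Myh7, 1 in Myh2, 2 in Myh1 and 3 in Myh4, and in 13.6% of all windows. The capitalised TATAAA nearest the start lay 32 bases before the annotated start of Myh1 and 31 before that of Myh4, but after the annotated start of Myh2. CANNTG, the E-box recognised by the MyoD family, was found in 2 places in Myh7, 3 in Myh4 and 0 in Myh2 and Myh1, with 72.3% of all windows holding it. The MEF2 motif occurred once each in Myh1 and Myh4, where it overlapped a TATAAA match by 6 bases, and in 3.19% of all windows. CATTCC, the core of the MCAT element, occurred in 1 place each in Myh1 and Myh4 and in 14.7% of windows, and the CArG box in 1 place in Myh4 and in 1.63% of windows. These matches describe the letters in the windows and not binding.

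Deposited intensities are linear values with some background already subtracted. The size of the most negative value on each array, between 0.0011 and 0.0144, was taken as a bound on its noise. Summed over all probes the arrays ranged from 13.8 on replicate 6 to 165.3 on replicate 1, so levels of single genes are given both as deposited and on a log2 scale with the array's median probe at 0 (over the 175 probes above 0 on all arrays). All 10 skeletal muscle fibre markers measured, which include the 4 myosins, exceeded the noise bound on all 6 arrays, beside 130 of all 223 probes. Of the markers of other cells, 2 of 2 fat, 5 of 6 endothelial and 3 of 4 fibroblast probes also exceeded it on all 6 arrays. Il6 and the macrophage cytokine Il1b exceeded it on 0 of 6 arrays and the satellite cell factor Myf5 on 1 of 6. Without the myosins, the 6 other fibre markers held 7.81% to 11.6% of an array's summed intensity. The 2 fat markers, Pparg and Lpl, held 0.127% to 0.267% on 5 arrays and 0.730% on replicate 6. Lpl also belongs to the list of oxidative genes used below. Fabp4, a fatty acid carrier outside the fat list, went the other way. Its median-centred level was highest on replicate 1 (2.83) and lowest on replicate 6 (1.22). The 6 endothelial markers together held 0.290% to 0.809%, with the highest sum on replicate 6, and the fibroblast markers 0.224% to 0.392%. By median-centred level the endothelial markers differed: Flt1 and Kdr were highest on replicate 6, Pecam1 and Flt4 on replicate 5, and Cdh5 and Tek on replicate 4. Fewer fibres and less RNA per fibre cannot be told apart in such samples.

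All 4 myosin genes were bright on every array. Myh7, the slow chain, read 7.62, 1.04, 1.19, 1.56, 0.817 and 0.386 deposited units on replicates 1 to 6, and Myh2, the IIa chain, read 1.81, 0.270, 0.285, 0.320, 0.213 and 0.110. Myh1, the IIx chain, read 5.56, 0.926, 0.991, 0.912, 0.635 and 0.258, and Myh4, the IIb chain, read 3.43, 0.517, 1.19, 0.662, 0.455 and 0.194. Each was highest on replicate 1 and lowest on replicate 6, the arrays of highest and lowest total. Relative to the noise bound of its array, the lowest value of the family was Myh2 on replicate 5, at 76.0 times the bound, and the highest was Myh7 on replicate 4, at 1114 times. By brightness among the 223 probes, Myh7 placed between 4 and 8, Myh1 between 6 and 11, Myh4 between 8 and 13, and Myh2 between 16 and 21. A probe's brightness also depends on how well it binds its target, so these places are not an order of transcript abundance.

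Most of the range in the deposited values was common to the 4 isoforms. In deposited units each spanned 16.4-fold (Myh2) to 21.5-fold (Myh1) between the lowest and highest array, beside a median of 10.2-fold over the 175 probes. After median centring the SD over 6 arrays was 0.60 for Myh7, 0.48 for Myh2, 0.62 for Myh1 and 0.70 for Myh4 in log2 units, beside a median of 0.64 over all probes. On this scale Myh7, Myh2 and Myh1 were highest on replicate 1, while Myh4 was highest on replicate 3, at 6.27 against 5.73 on replicate 1.

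**Figure D1:**
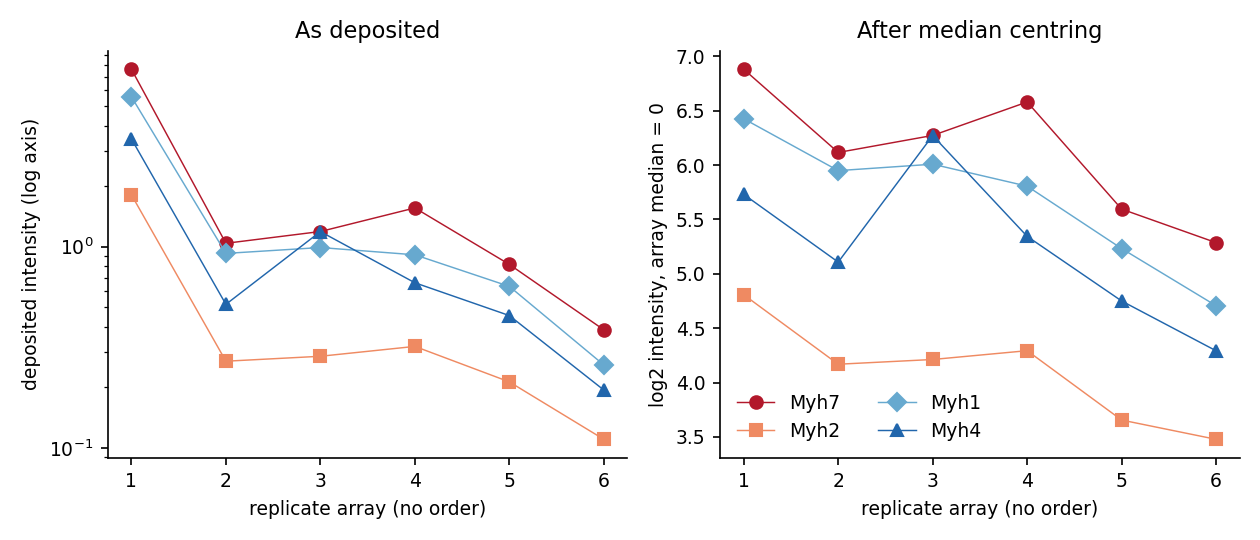
Intensity of the 4 myosin heavy chain probes on each of the 6 replicate arrays, as deposited on a log axis (left) and as log2 intensity with the array median at 0 (right). Thin lines only join the values of 1 gene. The 4 genes share the high values of replicate 1 and the low values of replicate 6, and Myh4 reaches the level of Myh7 on replicate 3.

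Ratios between isoforms within an array do not depend on the array's scale. The slow-to-IIa ratio, Myh7 over Myh2, was 4.21, 3.86, 4.17, 4.88, 3.84 and 3.50 on replicates 1 to 6. It spanned 1.39-fold, with an SD of 0.16 log2 units (n = 6), the narrowest of the 6 isoform pairs. Myh7 over Myh1 was 1.37, 1.12, 1.20, 1.71, 1.29 and 1.49, a 1.52-fold span with an SD of 0.22. Myh2 over Myh1 was 0.326, 0.291, 0.288, 0.350, 0.335 and 0.427, a 1.48-fold span with an SD of 0.21. Replicate 4 held the highest ratio of Myh7 to each fast gene, and replicate 6 the lowest ratio of Myh7 to Myh2 together with the highest ratio of Myh2 to Myh1. The slow and the 2 slower fast isoforms thus kept their ratios within about 1.52-fold across samples. Their deposited intensities spanned 16.4-fold to 21.5-fold, but that span includes the array scale, which a ratio within an array removes by construction. After median centring their levels spanned 2.51-fold (Myh2) to 3.29-fold (Myh1). After quantile normalization the SDs were larger, at 0.39 for Myh7 over Myh2, 0.35 for Myh7 over Myh1 and 0.31 for Myh2 over Myh1.

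Ratios to Myh4 were also narrow on 5 arrays, and replicate 3 lay apart. Myh7 over Myh4 was 2.22, 2.01, 1.00, 2.35, 1.80 and 1.99 on replicates 1 to 6, and Myh2 over Myh4 was 0.528, 0.522, 0.240, 0.483, 0.468 and 0.569. Myh1 over Myh4 was 1.62, 1.79, 0.833, 1.38, 1.40 and 1.33. In all 3 ratios replicate 3 was the lowest sample, with relatively more Myh4 signal. The SDs were 0.45 for Myh7 over Myh4, 0.46 for Myh2 over Myh4 and 0.38 for Myh1 over Myh4, with spans of 2.35-fold, 2.37-fold and 2.15-fold. Without replicate 3 the SDs were 0.15, 0.11 and 0.18, and the spans 1.31-fold, 1.21-fold and 1.34-fold.

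**Figure D2:**
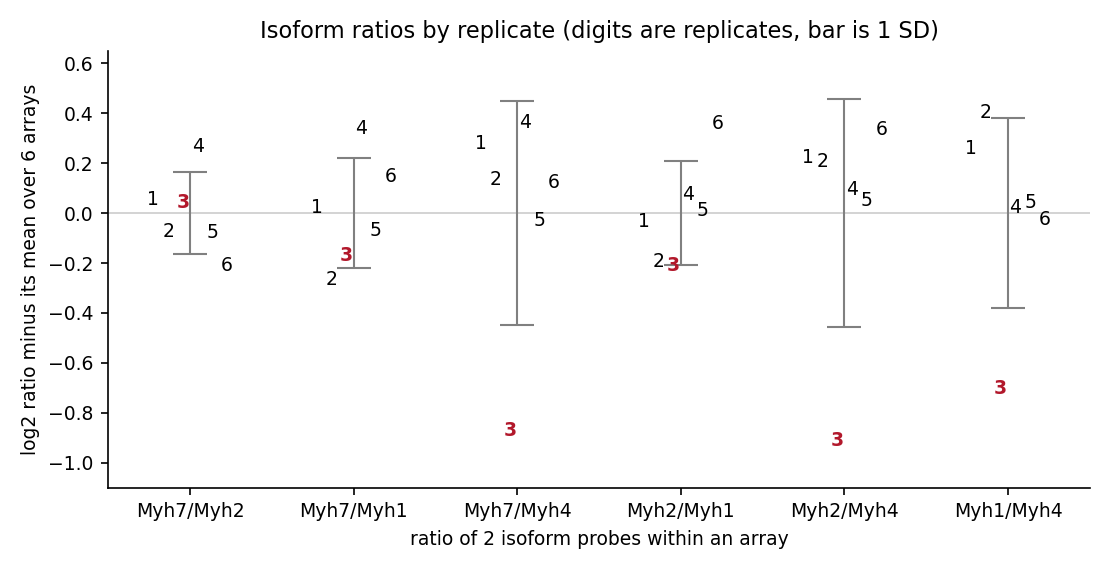
Log2 ratio of each isoform pair within each array, minus the pair's mean over the 6 arrays. Digits are replicates (replicate 3 in red) and bars show 1 SD either side of the mean. Replicate 3 lies below all others in the 3 ratios with Myh4 as the lower term, and within the range of the others or beside replicate 2 in the ratios without Myh4.

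As a share of the summed signal of the 4 probes, Myh7 held 41.4%, 37.8%, 32.6%, 45.2%, 38.5% and 40.7% on replicates 1 to 6, a mean of 39.3% ± 4.22 (SD, n = 6). Myh4 held 18.6%, 18.8%, 32.5%, 19.2%, 21.5% and 20.4%, a mean of 21.8% ± 5.35. Shares of Myh1 lay between 26.4% and 33.6%, and those of Myh2 between 7.81% and 11.6%. On replicate 3 the share of Myh4 was 0.025 percentage points under that of Myh7, whereas on every other array Myh7 held at least 17.1 points more. These are shares of probe signal, so only their differences between arrays are read, and they are not shares of fibres or of protein.

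The isoform ratios were narrow beside those of other probes. The 6 isoform pairs had a median SD of 0.30, against a median of 0.75 over all 8385 pairs of the 130 probes above the noise bound on every array. An SD as small as that of Myh7 over Myh2 was found in 23 of the 8385 pairs (0.274%), and one as small as that of Myh2 over Myh4 in 18.2%. Bright probes have narrower ratios, so the family was also set beside the 120 pairs of the 16 probes at least as bright as Myh2. Their median SD was 0.42. These sets include the isoform pairs, and each count includes the pair it is made for. Among the bright pairs, 2 had an SD no larger than that of Myh7 over Myh2, namely that pair and Ldhb over Myh2, while 6 had one no larger than that of Myh2 over Myh1 and 8 no larger than that of Myh7 over Myh1. For the 3 pairs with Myh4, 36.7% to 60.0% of these bright pairs were as narrow. Without replicate 3 the median over the isoform pairs was 0.18, against 0.40 over the bright pairs and 0.76 over all pairs.

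**Figure D3:**
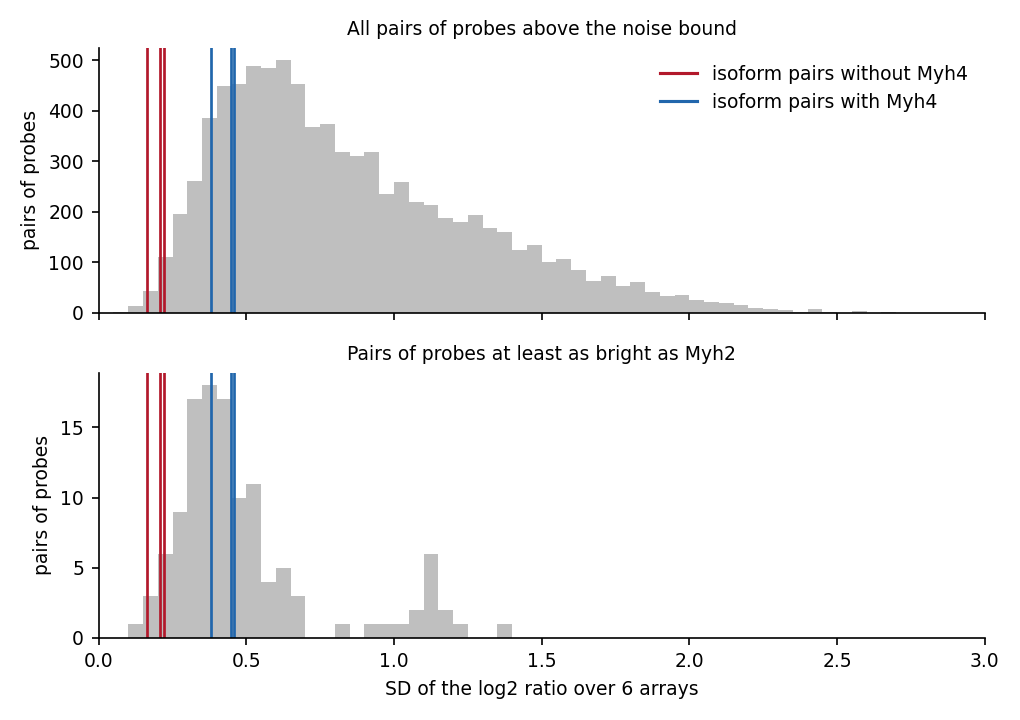
Number of probe pairs by the SD of their log2 ratio over 6 arrays, for all pairs of probes above the noise bound (top) and for pairs of the 16 probes at least as bright as Myh2 (bottom). Vertical lines are the 6 isoform pairs. The 3 pairs without Myh4 (red, 0.16 to 0.22) lie at the narrow end of both, and the 3 pairs with Myh4 (blue, 0.38 to 0.46) in the middle of the bright pairs.

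The median-centred levels of the isoforms were positively correlated over the samples, but 0 of the 6 pairs passed adjustment over all pairs of probes. Myh7 and Myh2 had Pearson's r = 0.98 (exact permutation p = 0.00139, the smallest that 720 pairings can give) and placed the 6 samples in the same order, Spearman's rho = 1.00 (exact p = 0.00278). Myh2 and Myh1 had r = 0.96 (exact p = 0.00694) and rho = 0.83 (exact p = 0.058), and Myh7 and Myh1 r = 0.93 (exact p = 0.00833) and rho = 0.83 (exact p = 0.058). For Myh4, r was 0.84 with Myh1 (exact p = 0.033), 0.77 with Myh7 (exact p = 0.072) and 0.76 with Myh2 (exact p = 0.071), and rho was 0.89 (exact p = 0.033), 0.83 and 0.83 (exact p = 0.058 for both). An exact two-sided p under 0.05 with r above 0 was found for 4 of the 6 isoform pairs and for 11.0% of all 15225 pairs of probes. After Benjamini-Hochberg adjustment over the 15225 pairs, 0 of the 6 passed, as did 0 of all pairs, with adjusted p from 0.13 to 0.30 for the isoforms.

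Without the 2 samples farthest from the median of the first gene, r was 0.95 for Myh7 with Myh2 and 0.92 for Myh2 with Myh1. The other pairs fell to between 0.33 and 0.77, so those relations rested in part on the extreme samples. Replicate 3 set the lower r of Myh4: without it, r was 0.99 with Myh7, 0.98 with Myh2 and 0.97 with Myh1. After quantile normalization the 3 pairs with Myh4 changed sign, to -0.48 with Myh7, -0.36 with Myh2 and -0.84 with Myh1. That scale sets each value by its rank on the array, which left few distinct values. Myh2 was at -1.51 on replicates 1, 2, 4 and 6, and Myh4 at -0.74 on replicates 1, 2 and 6. The other pairs then had r = 0.62 for Myh7 with Myh2 (exact permutation p = 0.10), 0.74 for Myh7 with Myh1 (exact p = 0.094) and 0.50 for Myh2 with Myh1 (exact p = 0.37), so that 0 of the 6 pairs had a p under 0.05. Without replicate 6, 1 of the 6 pairs did, Myh7 with Myh2.

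Between ratios that share no gene, 0 of 3 correlations passed the threshold. The ratio Myh7 over Myh2 against Myh1 over Myh4 had r = -0.12 (exact permutation p = 0.82) and rho = 0.086 (exact p = 0.92). Myh7 over Myh1 against Myh2 over Myh4 had r = 0.36 (exact p = 0.49) and rho = 0.37 (exact p = 0.50). Myh7 over Myh4 against Myh2 over Myh1 had r = 0.47 (exact p = 0.33) and rho = 0.37 (exact p = 0.50). Over these 3 relations the adjusted exact p-values lay between 0.74 and 0.82. Without the 2 samples farthest from the median of the first ratio, the values of r were -0.45, 0.87 and -0.11. Without replicate 3, they were -0.012, -0.040 and -0.021. A p that misses the threshold in 6 samples does not show that the ratios were unrelated.

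The slow-to-fast ratio, Myh7 over the geometric mean of the 3 fast genes, was 2.34, 2.06, 1.71, 2.70, 2.07 and 2.18 on replicates 1 to 6. It spanned 1.58-fold, with a log2 mean of 1.11 ± 0.22 (SD, n = 6), and was lowest on replicate 3 and highest on replicate 4. Across the 171 other probes above 0 on all arrays, 0 had a centred level that tracked this ratio after adjustment, and 1 had an exact permutation p under 0.05 (0.585% of probes). That probe was Htt, the huntingtin gene, with r = -0.96 (exact p = 0.00833, adjusted p = 1.00). Htt did not exceed the noise bound on every array, and its r was -0.75 when replicates 3 and 4, which had the most extreme ratios, were left out. Its rho was -0.83 (exact permutation p = 0.058). On other scales, r of Htt was -0.37 in deposited units, -0.33 relative to the 28S ribosomal RNA probe and -0.84 after quantile normalization. Next lowest were Hadh, an enzyme of fatty acid oxidation (r = -0.77, exact p = 0.076), and Mef2a, a MADS-box factor of muscle genes (r = -0.75, exact p = 0.12). Among named genes, the highest values belonged to Ppara, a receptor that drives fatty acid use (r = 0.78, exact p = 0.075), the AP-1 subunit Jun (r = 0.72, exact p = 0.10) and the angiopoietin receptor Tek (r = 0.65, exact p = 0.16), and 2 unnamed probes lay between Jun and Tek (r = 0.71 and 0.70). Signs of Hadh and Mef2a differed between scales: r was 0.017 and -0.091 in deposited units and 0.28 and 0.096 after scaling to the 28S ribosomal RNA probe. Those of Ppara, Jun and Tek were above 0 on all 4 scales. In deposited units and relative to 28S, however, most of the 171 probes had r above 0. The signs on those 2 scales therefore do not set single genes apart.

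Known fibre type regulators and metabolic genes held 0 probes with an exact p under 0.05 against the slow-to-fast ratio. The counts were 0 of 9 probes for regulators of fibre type, 0 of 14 for oxidative metabolism, 0 of 7 for glycolysis and 0 of 4 for sarcomere and fibre structure, beside 0.585% of all probes. The median r of these lists lay between -0.20 and -0.062, beside -0.036 over all 171 probes. Regulators measured included Myod1 and Myog, myogenic factors known to be enriched in fast and slow muscle. Of the 8 other myosin genes listed, such as the embryonic chain Myh3 and the light chains, 0 were among the named probes.

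The genes that kept the steadiest ratio differed in part between the isoforms. For Myh7, the nearest named genes outside the family were Ldhb, the heart-type lactate dehydrogenase subunit of oxidative fibres, Cpt1b, which carries fatty acids into muscle mitochondria, and Mb, the oxygen store myoglobin. Their log2 ratios to Myh7 had SDs of 0.20, 0.22 and 0.25 over the 6 arrays, beside a median of 0.60 over the 129 other probes above the noise bound. Myh2 itself was nearer to Myh7 than any of them (0.16). For Myh2 the nearest were Ldhb (0.14), Cpt1b (0.17) and Dmpk, the myotonic dystrophy kinase (0.20), beside a median of 0.53. The ratio of Ldhb to Myh2 spanned 1.32-fold over the 6 arrays, less than that of Myh7 to Myh2. For Myh1 they were the fatty acid carrier Fabp4 (0.16), Dmpk (0.17) and the receptor Igf2r (0.18), beside a median of 0.57.

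For Myh4 the nearest genes differed. Pdha1, a subunit of the pyruvate dehydrogenase that feeds glycolytic carbon into mitochondria, had an SD of 0.16, followed by Dgat1, a triglyceride-making enzyme (0.25), and Acadl, the long-chain acyl-CoA dehydrogenase (0.28), beside a median of 0.62. Replicate 3 decided most of this list. Without replicate 3, Cpt1b was the nearest probe to Myh4 (0.11), where it had ranked 11, and Ldhb ranked 3 (0.13), where it had ranked 39 of 129. Pdha1 ranked 5 without replicate 3 (0.17). Of the 3 genes named for Myh7, Ldhb ranked 3, Cpt1b 4 and Mb 6 without replicate 3. The lists of the other fast isoforms changed as well. For Myh2, Des, the intermediate filament desmin, became the nearest named gene without replicate 3 (0.11), where it had ranked 5, and Ldhb went down to rank 5 (0.16). For Myh1 the nearest were then Acadl (0.14), Pdha1 (0.15) and Fabp4 (0.18), with Pdha1 at rank 2 where it had ranked 24. Without replicate 3, the SD of Pdha1 was thus no larger against Myh1 than against Myh4.

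**Figure D4:**
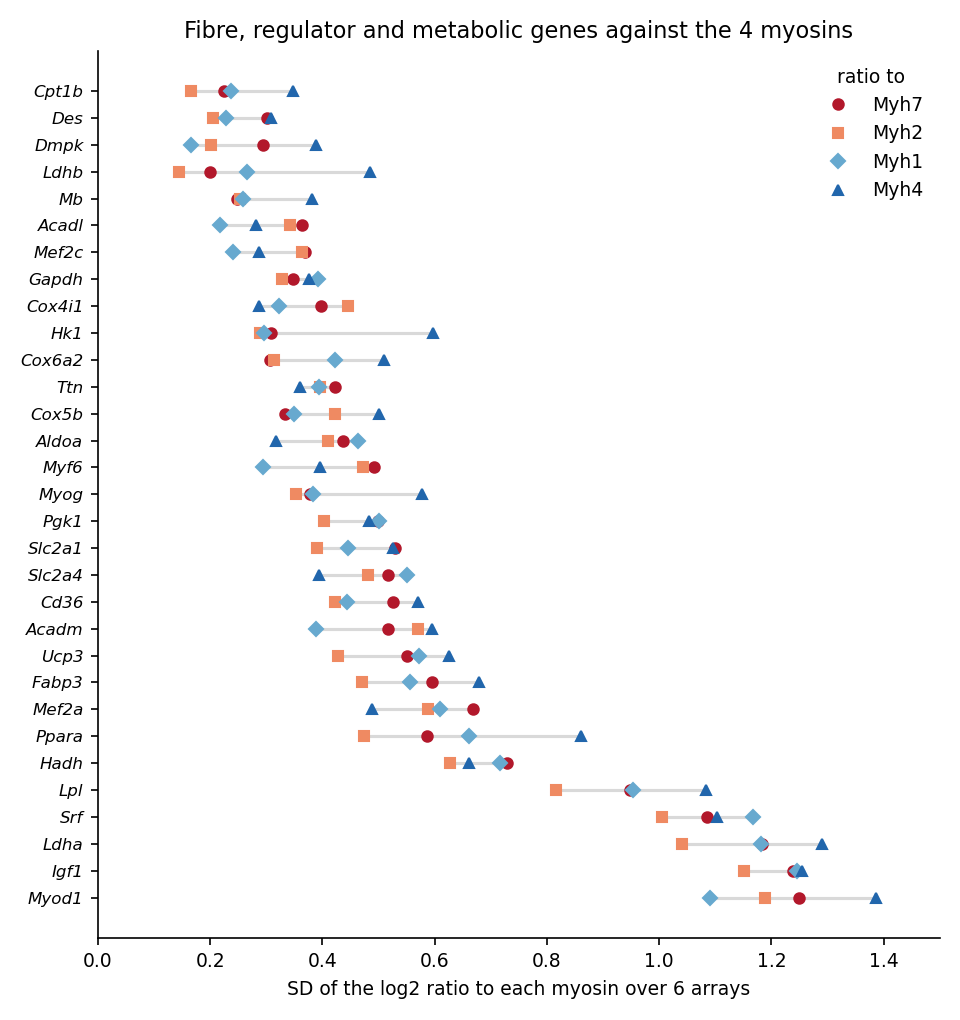
SD over 6 arrays of the log2 ratio of each gene to each of the 4 myosins, for the 31 genes of the fibre structure, regulator, oxidative and glycolytic lists above the noise bound (for Igf1, the nearer of 2 probes). A small SD means a steady ratio. Ldhb and Cpt1b lie nearest to Myh7 and Myh2, Dmpk and Acadl nearest to Myh1, and Acadl, Cox4i1 and Mef2c nearest to Myh4. Ldhb and Hk1 are farther from Myh4 than from the other isoforms, and Myod1, Igf1, Ldha and Srf lie farthest.

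Genes of the metabolic, structural and regulator lists were counted among the probes nearest to each isoform. The closest 25% of probes to each isoform, 25.6% of the 129 by construction, served as the measure. For Myh7 they held 3 of 3 fibre structure genes (Des, Dmpk and Ttn), 7 of 13 oxidative genes, 3 of 7 glycolytic genes and 2 of 9 regulator probes. For Myh2 the counts were 3, 5, 4 and 2 of the same totals, for Myh1 2, 6, 1 and 3, and for Myh4 3, 4, 3 and 2. The oxidative count for Myh4, 4 of 13, was near the share of all probes, and so was the regulator count for each isoform. Median SDs to Myh7 were 0.30 for fibre structure, 0.40 for oxidative, 0.50 for glycolytic and 0.67 for regulator genes, beside 0.60 over all probes. Of the regulators, Mef2c (0.37) and Myog (0.38) kept the steadiest ratios to Myh7, and Myod1 (1.25) and the 2 probes for the growth factor Igf1 (1.24 and 1.72) the least steady. Ldha, the muscle-type lactate dehydrogenase subunit of glycolytic fibres, had SDs of 1.04 to 1.29 against the 4 myosins. Its partner Ldhb had SDs of 0.14 to 0.48. On replicates 1, 3 and 5 Ldha read only 0.0288, 0.0052 and 0.0052 deposited units, near the noise bounds of 0.0144, 0.0026 and 0.0028. Ldhb read 2.47, 0.348 and 0.309 there, so the 2 genes differed in brightness as well as in steadiness. Lists were not tested as sets, and these shares describe the 6 arrays.

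On replicate 3, Pdha1 stood with Myh4. Relative to Myh2, Myh4 on replicate 3 was 2.14 times its geometric mean on the other 5 arrays, and Pdha1 2.00 times. For Myh4 the log2 ratio to Myh2 was 2.06 on replicate 3, against 0.92, 0.94, 1.05, 1.09 and 0.81 on replicates 1, 2, 4, 5 and 6. For Pdha1 it was -0.32 on replicate 3, against -1.23, -1.22, -1.53, -1.14 and -1.49. Both genes were among the 33 of the 129 probes above the noise bound that had their highest ratio to Myh2 on replicate 3. On replicates 5 and 6, 43 and 33 probes were highest. Only Myh4 and Pdha1 were separated upward on replicate 3 by over 0.625 of their whole range, with 1 probe each on replicates 5 and 6. Myh4 and Pdha1 were picked by this separation, so it is no test of a link between them. Glycolytic genes as a list held 21.8% of the summed intensity on replicate 3, the highest share, with 21.2% on replicate 4 and 12.3% to 19.1% on the others. Most of this sum came from Aldoa and Gapdh, which read 5.30 and 3.49 of the list's 8.99 deposited units on replicate 3. After median centring, Aldoa, Pgk1 and Slc2a4 were highest on replicate 3, and Gapdh, Ldha, Hk1 and Slc2a1 on other arrays. The part of glycolytic genes in the Myh4 value was not tested.

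**Figure D5:**
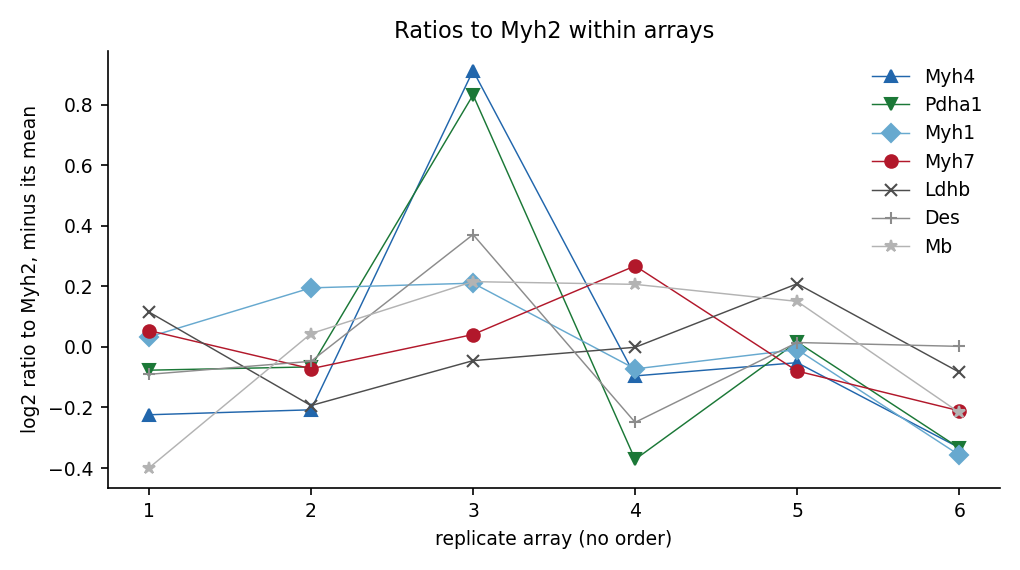
Log2 ratio of Myh4, Pdha1, Myh1, Myh7, Ldhb, Des and Mb to Myh2 within each of the 6 replicate arrays, minus each gene's mean. Thin lines only join the values of 1 gene. Myh4 and Pdha1 lie above the other genes on replicate 3, where Myh4 is 0.91 above its mean, and on the other arrays Myh4 lies between -0.33 and -0.052.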

How the data were processed

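One array per sample was deposited by the authors as linear intensity values, 1 per probe. How the arrays were scanned and normalized is not stated in any label; some deposited intensity values lie below 0, so background had been subtracted. Gene names came from the platform annotation, which names 1 gene for 205 of the 223 probes, and the 4 myosin symbols matched current gene identifiers (GRCm38.p6 gene table). The probes' own sequences were not used here, so cross-binding between the similar fast myosin transcripts was not tested.

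Probes above 0 on all arrays (175) were converted to log2 without a pseudocount and centred on the array median. Ratios between probes were taken within arrays. Correlations used exact two-sided permutation over all 720 pairings of the 6 samples (numpy 2.4.6, pandas 2.3.3), with Benjamini-Hochberg adjustment over all pairs of probes (the plan named only "the pairs", which could be read as the 6 isoform pairs), all probes tested, or the 3 relations of ratios; the procedure was tested on simulated data. Alternatives were other scalings, noise offsets, rank correlation and leaving out samples. Besides the 4 isoforms, genes named are the 3 of steadiest ratio to each isoform, the 3 named genes of highest and of lowest correlation with the slow-to-fast ratio, and listed fibre genes. Members and lists were chosen with earlier results of these data known. Replicate 3 comparisons, the brightness comparison, the genes standing apart with Myh4 and the closest-quarter counts were chosen after seeing the values.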

Additional observations from a re-analysis of the deposited data

Results flagged for a closer look

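Among 11 sets of 6 values (4 isoform levels, 6 isoform ratios and the slow-to-fast ratio), 2 had a highest or lowest array separated from its neighbour by over 0.625 of the range of the 6 arrays. Both are ratios to Myh4 on replicate 3, so they are not independent of each other. The log2 ratio of Myh7 to Myh4 was 0.0011 there, against 0.84 to 1.24 on the other arrays. The log2 ratio of Myh2 to Myh4 was -2.06 there, against -1.09 to -0.81 on the others. Chance flags about 1 in 20 such sets. The level of Myh4 after median centring was not itself separated by that margin.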

How the results depend on the processing

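Isoform ratios within arrays do not depend on array scale, and 1 group of 6 arrays limits every value. The SD of a level does depend on it: with no scaling it was 1.43 for Myh7, 1.35 for Myh2, 1.44 for Myh1 and 1.40 for Myh4, and after scaling to 28S 1.22, 1.10, 1.18 and 1.19 in the same order. After quantile normalization it was 0.50, 0.34, 0.26 and 0.30, so that Myh7 and not Myh4 varied most. Quantile normalization changes more than the array scale, since it sets each value by its rank and left tied values among the isoforms. The isoform ratios were less narrow after it. The log2 slow-to-fast ratio was then 1.33 (SD 0.43, against 0.22 as deposited). The log2 ratio of Myh7 to Myh2 was 2.24 (SD 0.39, against 0.16). The SD was 0.35 for Myh7 over Myh1 and 0.31 for Myh2 over Myh1. Against Myh4 it was 0.70 for Myh7, 0.53 for Myh2 and 0.54 for Myh1. Quantile normalization also turned the correlation of Myh4 to -0.48 with Myh7, -0.36 with Myh2 and -0.84 with Myh1, with 0 of 6 isoform pairs at an exact p under 0.05. With the fast intensities summed, the log2 slow-to-fast ratio was -0.63, a different quantity. Adding or subtracting the noise bound moved no mean ratio by as much as its SD. After scaling to 28S, r was 1.00 for Myh7 with Myh2, 0.98 for Myh7 with Myh1 and 0.99 for Myh2 with Myh1. The adjusted exact permutation p was 0.049 for each, where 2.82% of all pairs passed. This scaling subtracts the same probe from every gene, and the median r over all pairs was 0.61, against 0.065 after median centring. On the 28S scale, 32.7% of all pairs had r above 0 and an exact p under 0.05. For ratios that share no gene, Spearman's rho of Myh7 over Myh2 with Myh1 over Myh4 was 0.086, and r of Myh7 over Myh4 with Myh2 over Myh1 was -0.11 without the 2 farthest samples. Leaving out 1 replicate gave r from -0.040 to 0.63 for Myh7 over Myh1 with Myh2 over Myh4, and from -0.021 to 0.66 for Myh7 over Myh4 with Myh2 over Myh1, the lowest without replicate 3 in both. Probes with an exact p under 0.05 against the slow-to-fast ratio numbered 4 after scaling to 28S, 3 after quantile normalization, 0 with only probes above the noise bound, and 1 to 3 without 1 replicate, with 0 passing adjustment in each. No paired analysis was possible because all samples belong to 1 group.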

Other observations

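The same ratios to Myh2 held 2 other separated values among the 129 probes, neither on replicate 3. Fst, which encodes follistatin, a secreted antagonist of myostatin, was 2.66 times its geometric mean of the other arrays on replicate 5. An unnamed probe was 3.26 times that mean on replicate 6. The fat markers Pparg and Lpl together read 0.101 deposited units on replicate 6, against 0.053 to 0.100 on replicates 2 to 5, although the 4 myosins together read 0.949 there, against 2.12 to 3.66 on replicates 2 to 5. The fatty acid carrier Fabp4, in contrast, had its lowest median-centred level on replicate 6 (1.22). All of these values were picked after they had been seen, and no test was made of them.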
